A study of Mus musculus with 12 samples.

Results

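The comparison described here is that of irradiated haematopoietic stem and progenitor cells without NIPA against irradiated wild type (WT) cells. NIPA is the protein encoded by Zc3hc1. The 6 samples were chosen by their titles: 3 of NIPA knockout (NIPA KO, here KO) cells and 3 of WT cells, all given 4 Gy of ionizing radiation, out of the 12 arrays of the series. The other 6 arrays, 3 of each genotype, are untreated cells and give the genotype difference without irradiation. They may come from the same pools and are not taken as independent replication. All cells were LSK cells (Lineage-, SCA1+, cKIT+), the small bone marrow fraction that holds the blood stem cells and their earliest progeny. All mice were older than 20 months and had been backcrossed to C57BL/6 for at least 10 generations. Every sample pooled 3 mice. The sorted cells spent 30 min in serum-containing medium with IL-3, IL-6 and SCF before irradiation, and irradiated and untreated samples alike were harvested after 3 h. The p-values therefore measure the spread between pools, and the labels do not say whether an untreated and an irradiated sample were divided from 1 pool. The labels do not say which part of Zc3hc1 was removed.

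NIPA is an F-box-like protein. It joins the SKP1 and CUL1 scaffold to form a ubiquitin ligase, and nuclear cyclin B1, the partner of CDK1 at entry into mitosis, is its best known substrate. The protein has also been placed at the nuclear pore, beside TPR, and has been linked to FANCD2 of the Fanconi anaemia pathway, which repairs DNA crosslinks and protects blood stem cells. Ionizing radiation breaks DNA. Cells answer through ATM and p53, which arrest the cycle through Cdkn1a and, in some cells, induce death through Bbc3 and Pmaip1. The comparison asks whether cells without NIPA are in another transcriptional state 3 h after such damage.

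The values are log2 expression values, so a difference of 1 is a 2-fold difference, and 15348 genes were bright enough to be tested. Medians of the arrays lay between 5.74 and 5.85. Correlations over these genes were 0.955 to 0.987 between irradiated KO and irradiated WT arrays and 0.960 to 0.977 within the irradiated groups, ranges that overlap. The first 2 principal components of the 6 irradiated arrays held 39.4% and 26.2% of the variance and did not part the genotypes. Kit, which encodes a receptor used for the sort, measured 9.97 to 11.2 on the 6 arrays. Cd4, Cd8a and Ly6g, which mark mature T cells and granulocytes, exceeded the brightness limit of 5.29 on 0 of them, but Itgam, which encodes the lineage marker CD11b, measured 7.39 to 8.66. Of the T cell receptor subunits, Cd3d (5.33 to 5.75) exceeded that limit on 6 of the arrays, Cd3g on 2 and Cd3e on 1. The pools also differed in genes of the sex chromosomes, and the labels give no sex. The mean of Eif2s3y, Kdm5d and Uty, all on the Y chromosome, was 4.74, 8.37 and 6.95 in irradiated WT arrays 1 to 3 and 8.15, 8.53 and 7.45 in irradiated KO arrays 1 to 3. Xist, expressed from the silenced X chromosome of females, measured 11.35, 5.19 and 11.45 in the WT arrays and 8.69, 5.46 and 11.23 in the KO arrays. WT array 1 thus stood apart with low Y-linked expression, and both genotypes held pools with high and with low Xist. Their part in the results below was examined only by a fit with the Y-linked mean as a covariate.

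Zc3hc1 itself was the only gene that passed the test. Its values were 7.98, 8.21 and 7.67 in irradiated WT cells and 5.61, 5.65 and 5.75 in irradiated KO cells. All 3 KO arrays lay far below the WT arrays and near the array medians, with no overlap. The group means were 7.95 ± 0.27 and 5.67 ± 0.07 (SD, n = 3), a difference of -2.28 on the log2 scale (SE 0.15, adjusted p = 4.02e-05 by limma with Benjamini-Hochberg adjustment). A residual signal of the KO arrays above the limit of 5.29 cannot be read as remaining transcript, since 1 probe set measures the gene and its position relative to the deleted part is not known. In untreated cells the difference was -2.50, and the irradiated difference departed from it by 0.22 (95% interval -0.25 to 0.68). Irradiation itself gave a difference of -0.33 in WT cells and -0.11 in KO cells, neither past the test (limma adjusted p = 0.25 and 0.75).

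**Figure D1:**
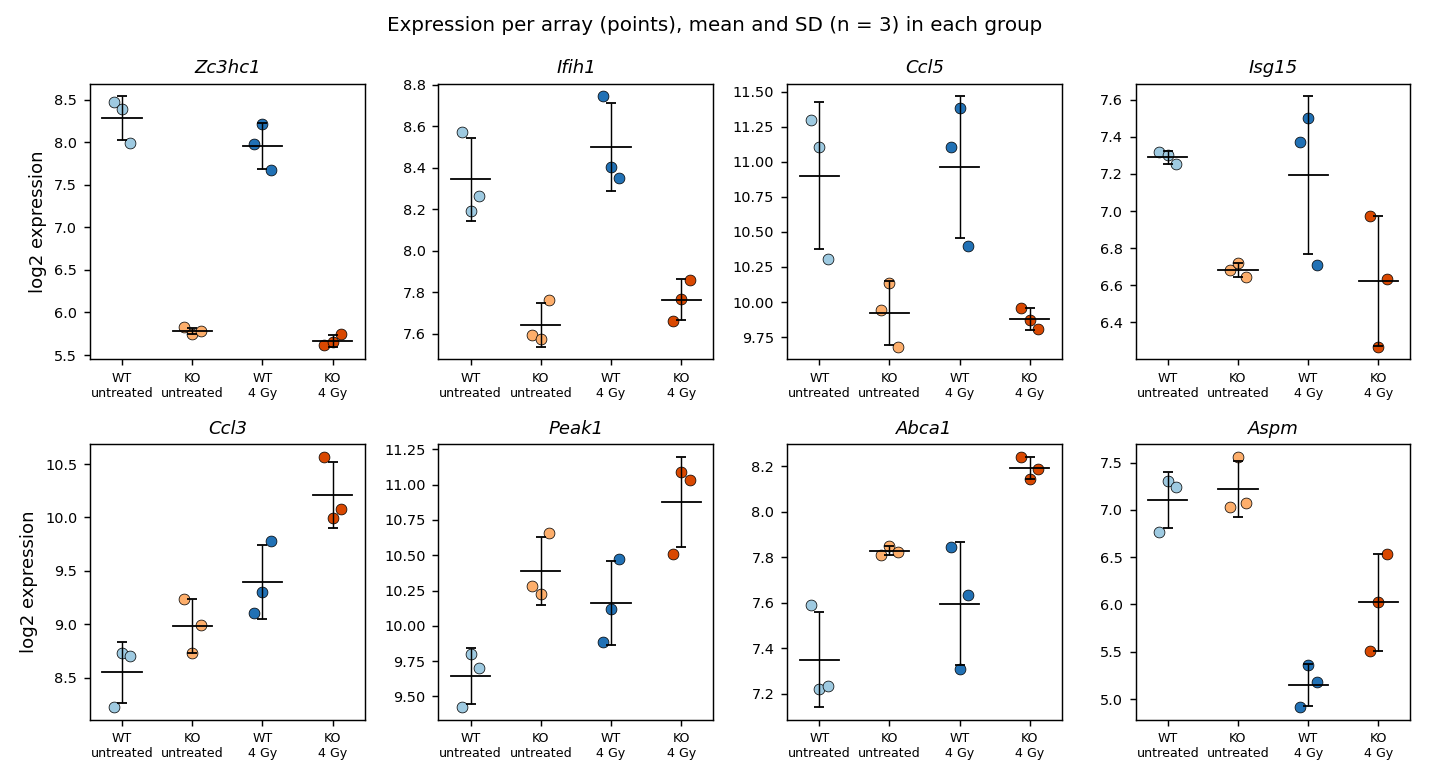
Log2 expression (y axes) of 8 genes on each of the 12 arrays (points), with the mean and SD of each group of 3. Irradiated KO arrays of Zc3hc1 lie between 5.61 and 5.75 against 7.67 to 8.21 in irradiated WT; Ifih1 and Ccl5 are lower and Peak1 and Abca1 higher in KO arrays both without and with irradiation, without overlap, while Isg15 overlaps after irradiation and Aspm overlaps without it.

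Across the other genes the genotypes lay close together. No gene passed the test as higher in irradiated KO cells (0% of those tested) and 1 passed as lower (0.00652%). Without adjustment, 471 genes (3.07%) had p under 0.05 by limma, 205 of them higher (1.34%) and 266 lower (1.73%) in KO cells. The second smallest adjusted p was 0.9995. The 5th and 95th percentiles of all differences were -0.26 and 0.27, and the median was -0.01. A 95% interval of the typical gene reached 0.32 to either side of its estimate, and for 96.8% of genes (14860) the interval lay wholly inside a 2-fold difference. For 80.0% it lay inside a 1.5-fold difference. Arrays of the 2 genotypes did not overlap for 982 genes (6.40%), higher in KO for 394 (2.57%) and lower for 588 (3.83%).

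**Figure D2:**
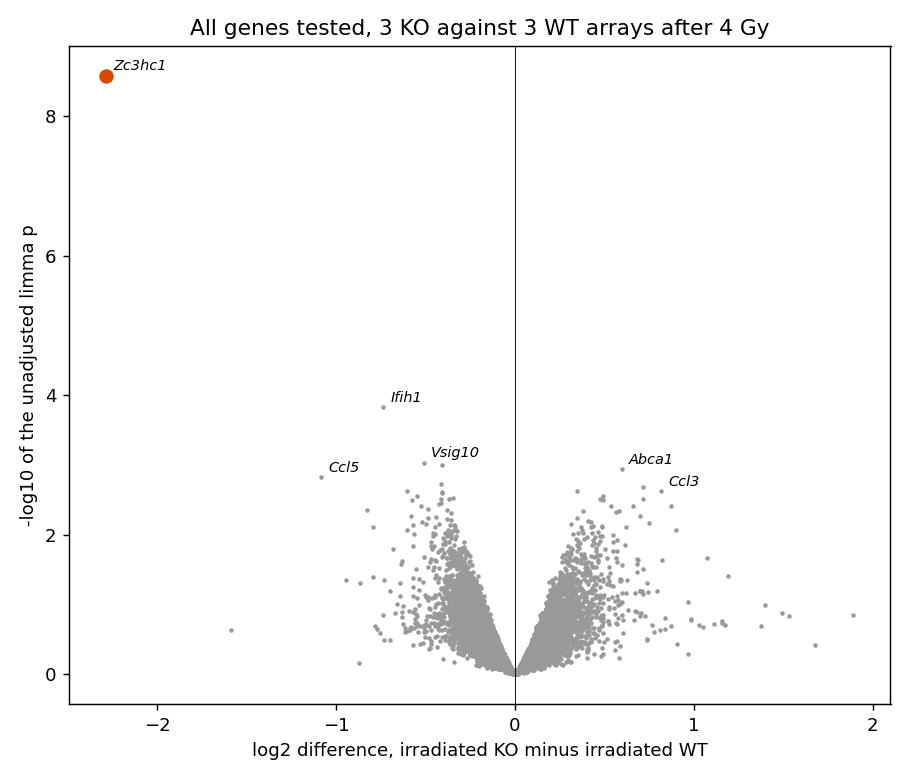
Difference between irradiated KO and irradiated WT cells (x axis, log2) against the negative log10 of the unadjusted limma p (y axis) for the 15348 genes tested, 3 arrays a group. Zc3hc1, in orange, is the only gene past the adjusted threshold of 0.05; Ifih1 follows with an unadjusted p of 0.00015.

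For most genes with large differences the arrays of the genotypes overlapped. Only 17 genes differed by more than 2-fold, 14 higher and 3 lower in KO cells, and for 14 of the 17 the arrays overlapped. These genes were named after their values were seen, because of their size. They were Zc3hc1, Ccl5, the 3 Y-linked genes, Ifi209, the B-lineage genes Ebf1, Blnk, Jchain and Slamf6, and 7 immunoglobulin light chain segments. Ebf1, the transcription factor that commits cells to the B lineage, measured 5.35, 6.20 and 5.32 in irradiated WT cells and 5.43, 5.95 and 9.62 in irradiated KO cells. Its difference of 1.38 (SE 1.02) rests on KO array 3 alone. In such bulk samples fewer cells of a type and less RNA per cell cannot be told apart. Blnk, an adaptor of the B cell receptor, showed the same array pattern, with 6.32, 6.80 and 6.07 in WT and 6.87, 6.44 and 9.34 in KO cells. Besides Zc3hc1, the arrays of Ccl5 and of 1 kappa light chain segment did not overlap. That segment measured 9.74, 9.25 and 8.72 in WT and 10.13, 11.32 and 11.94 in KO cells (difference 1.89, SE 1.21), and its probes may not tell it from near-identical segments.

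Genes of the interferon response, the antiviral programme that type I interferon induces, were mostly lower in irradiated KO cells without passing the test. Of 26 members measured, 23 differed downwards and 3 upwards, where 52.7% of all genes differed downwards, and the median difference was -0.17 against -0.01 over all genes. None passed the test for genotype, 3 had an unadjusted p under 0.05 by limma, and for 2, Ifih1 and Mx2, the arrays did not overlap. Over all genes, 3.07% had such a p and 6.40% had arrays that did not overlap. After irradiation the summed list did not separate the genotypes. Its mean deviation per array was 0.27, 0.12 and -0.09 in irradiated WT arrays and 0.03, -0.19 and -0.13 in irradiated KO arrays, so WT array 3 lay within the KO range. Without WT array 1 the median was -0.08, and without WT array 3 it was -0.26. Untreated cells gave a median of -0.32 for the same list. There the mean deviations lay apart, at 0.19, 0.26 and 0.05 in WT and -0.16, -0.19 and -0.15 in KO arrays.

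The promoters of the 2 members of smallest p after irradiation are shown because both hold the core of the interferon-stimulated response element, the site through which this programme is induced. The windows run from 250 bases before to 50 after the start of the gene, from RefSeq on GRCm38.p6, on the minus strand at chr2:62646206-62646505 (Ifih1) and chr4:156200769-156201068 (Isg15). Capitals mark matches to this core, taken as GAAA, any 2 bases and GAAA again, searched on both strands.
Ifih1: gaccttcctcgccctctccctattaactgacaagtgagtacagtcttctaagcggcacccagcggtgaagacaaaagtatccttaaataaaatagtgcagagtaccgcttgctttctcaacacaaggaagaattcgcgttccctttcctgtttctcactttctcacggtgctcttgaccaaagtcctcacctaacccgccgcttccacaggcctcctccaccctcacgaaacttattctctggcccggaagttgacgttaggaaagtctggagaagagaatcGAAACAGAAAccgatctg
Isg15: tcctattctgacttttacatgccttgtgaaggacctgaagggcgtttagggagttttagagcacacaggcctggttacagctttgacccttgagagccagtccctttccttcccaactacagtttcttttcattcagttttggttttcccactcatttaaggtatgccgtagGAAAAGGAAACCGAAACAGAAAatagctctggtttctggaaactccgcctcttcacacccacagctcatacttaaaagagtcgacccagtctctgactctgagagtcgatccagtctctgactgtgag
Ifih1 has 1 match, 32 bases after the start, and Isg15 has 3 that overlap one another, the first at position -78 from the start. Of the 26 members, 22 have a promoter in the table, and 13 of these (59.1%) hold a match, against 3.52% of the 11926 genes tested with a promoter and 3.44% of all 32851 windows. Mx2 and Ccl5 have no entry in the table.

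Ifih1 encodes MDA5, a cytoplasmic sensor of double-stranded RNA. It measured 8.74, 8.40 and 8.35 in irradiated WT cells and 7.66, 7.77 and 7.86 in irradiated KO cells. Every KO array was below every WT array. The difference of -0.74 (SE 0.14, unadjusted p = 0.00015 by limma) had the smallest p after Zc3hc1 but did not survive adjustment over all genes (limma adjusted p = 1.00). Untreated cells showed 8.57, 8.19 and 8.27 in WT and 7.59, 7.57 and 7.76 in KO, a difference of -0.70, again without overlap. Averaged over both doses the difference was -0.72, with a limma adjusted p of 0.0519, which was 0.0405 to 0.27 over the alternatives. The averaged fit counts untreated and irradiated arrays as separate samples. They may come from the same pools, so its p may be too small. Between untreated and irradiated cells Ifih1 differed by 0.16 in WT and 0.12 in KO cells, neither past the test.

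Isg15, a ubiquitin-like modifier, measured 7.38, 7.50 and 6.71 in irradiated WT cells and 6.97, 6.27 and 6.63 in irradiated KO cells. The groups overlapped, because WT array 3 was low and KO array 1 high (difference -0.57, SE 0.20, unadjusted p = 0.014 by limma). Without irradiation its groups lay apart, at 7.32, 7.30 and 7.25 in WT and 6.68, 6.72 and 6.65 in KO cells. Mx2, a dynamin-like antiviral GTPase, was tightly grouped at 6.36, 6.41 and 6.47 in irradiated WT and 6.09, 6.09 and 6.17 in irradiated KO cells. Its KO arrays were all below the WT arrays by a small margin (difference -0.30, SE 0.12; -0.53 untreated). Unlike Ifih1, Mx2 rose with irradiation in both genotypes, by 0.49 in WT and 0.73 in KO cells (limma adjusted p = 0.035 and 0.0037). Rsad2, an antiviral enzyme also known as viperin, differed by -0.33 (SE 0.22) after irradiation and by -0.77 without it. Among interferon-induced genes outside the list, Cxcl9, a chemokine for T cells, measured 6.13, 5.61 and 5.43 in irradiated WT and 5.04, 5.29 and 5.27 in irradiated KO cells, with WT array 1 the highest and no overlap (difference -0.52, SE 0.16). Cxcl9 was picked for a large downward difference with arrays apart. Its irradiated KO arrays lay near or below the brightness limit of 5.29. Ifi209, another interferon-inducible gene outside the list, differed the other way, at 4.51, 5.00 and 4.83 in irradiated WT and 6.59, 4.95 and 6.01 in irradiated KO cells. The WT arrays and KO array 2 were below the brightness limit of 5.29, so the size of the difference is uncertain. KO array 2 lay among the WT arrays (difference 1.07, SE 0.41, unadjusted p = 0.021 by limma; 0.56 untreated).

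**Figure D3:**
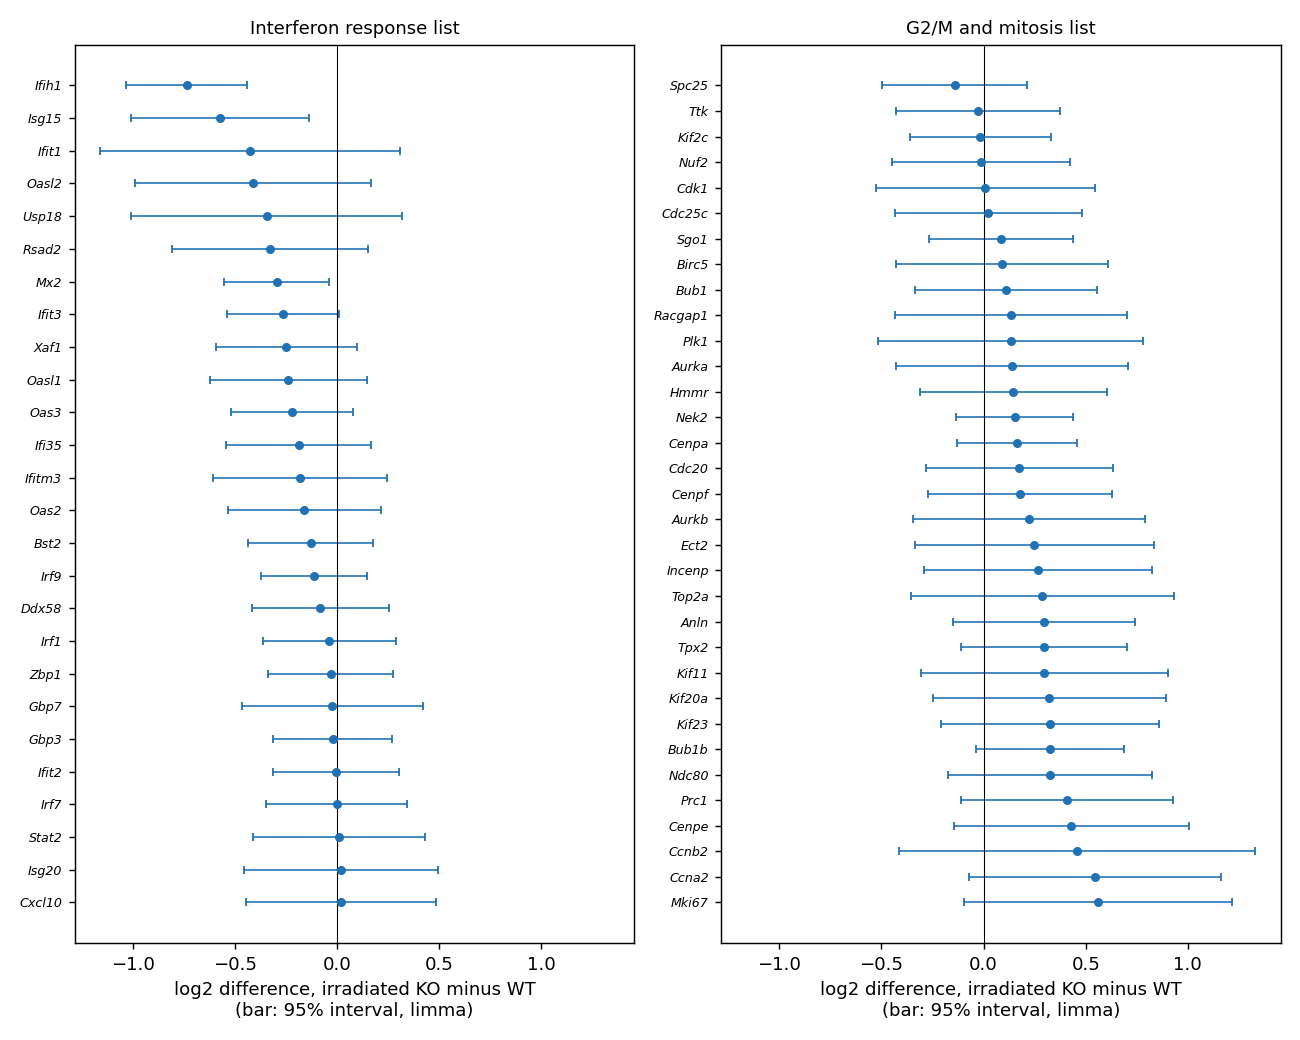
Difference between irradiated KO and irradiated WT cells (x axes, log2) for each measured member of the interferon response list (26 genes, left) and the G2/M and mitosis list (33 genes, right), with 95% intervals from limma. Interferon members lie mostly left of 0 and mitotic genes mostly right of it; the intervals of Ifih1, Isg15 and Mx2 exclude 0 before adjustment, and none of the mitotic genes' intervals does.

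Inflammatory chemokines differed in opposite directions. Of 25 NF-kB targets and inflammation genes, 15 were higher and 10 lower in irradiated KO cells, with a median of 0.02, and none passed the test. Ccl5, a chemokine for T cells and monocytes, measured 11.11, 11.38 and 10.40 in irradiated WT and 9.96, 9.87 and 9.80 in irradiated KO cells. The WT arrays were widely spread and all above the narrow KO group (difference -1.08, SE 0.27, unadjusted p = 0.0015 by limma; -0.98 untreated). Ccl3, a chemokine for macrophages that also acts on progenitors, measured 9.10, 9.30 and 9.78 in WT and 10.57, 9.99 and 10.08 in KO cells. Here the KO arrays were all higher (difference 0.82, SE 0.22, unadjusted p = 0.0024 by limma; 0.43 untreated). Irradiation raised Ccl3 in both genotypes, by 0.84 in WT and 1.23 in KO cells (limma adjusted p = 0.044 and 0.0056). Tnf measured 8.09, 8.18 and 8.41 in WT and 9.72, 8.53 and 8.54 in KO cells. The groups did not overlap, although most of the difference of 0.70 (SE 0.34) came from KO array 1. Ccl4, Il6 and Nfkbia differed by 0.17, 0.21 and 0.05.

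Targets of p53 lay near each other in both genotypes. Irradiation raised 26 of 39 measured targets in WT cells and 27 in KO cells, where 2.13% and 2.74% of all genes rose. After irradiation 20 targets were higher and 19 lower in KO than in WT cells, with a median difference of 0.00 and a range of -0.39 to 0.47, and none passed the test. The 95% intervals of 36 of the 39 lay inside a 2-fold difference. Cdkn1a, the inhibitor of cyclin-dependent kinases that arrests the cycle, measured 12.12, 12.72 and 11.98 in WT and 12.10, 12.13 and 12.56 in KO cells. These groups overlapped completely (difference -0.01, 95% interval -0.50 to 0.49). Mdm2, the ubiquitin ligase of p53, differed by 0.12 (-0.39 to 0.64). Bbc3, which encodes the death inducer PUMA, differed by -0.03 (-0.47 to 0.40). Phlda3, an inhibitor of AKT, differed by 0.00 (-0.42 to 0.42) although irradiation raised it by 2.78 in both genotypes. Ccng1, cyclin G1, differed by -0.03 (-0.33 to 0.27).

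Pmaip1, which encodes the death inducer NOXA, was the target of smallest p. It measured 8.43, 8.92 and 8.92 in irradiated WT and 8.94, 9.26 and 9.48 in irradiated KO cells. The lowest KO array was only just above the highest WT array (difference 0.47, SE 0.25, unadjusted p = 0.081 by limma). Among 25 genes of the BCL2 family and of cell death, 9 were higher and 16 lower, with a median of -0.02. Bid, a BH3-only protein cleaved by caspase 8, measured 7.20, 7.31 and 7.22 in WT and 7.68, 7.33 and 7.51 in KO cells, apart by a narrow margin (difference 0.26, SE 0.12). Trp53 and Bax were not analysed here, since they have no probe set with a single symbol.

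Genes of G2 and mitosis, where NIPA is known to act on cyclin B1, differed mostly upwards in irradiated KO cells, with 1 array in front. Of 33 members, 29 differed upwards and 4 downwards, where 47.3% of all genes differed upwards. The median was 0.18, and no member passed the test or had an unadjusted p under 0.05. The mean deviation of the list was -0.22, 0.03 and -0.13 in irradiated WT arrays and -0.05, -0.17 and 0.54 in irradiated KO arrays. KO array 3 stood above the rest, while the other KO arrays lay within the WT range. Without that array the list median was 0.01, and without KO array 2 it was 0.37. In untreated cells the median was 0.04. The same array had the highest level of B-lineage genes, described below, and the part of these cells in the mitotic values was not tested.

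Cdk1, the mitotic kinase, measured 7.10, 7.48 and 6.98 in irradiated WT and 7.57, 6.61 and 7.40 in irradiated KO cells, and the groups overlapped (difference 0.01, 95% interval -0.53 to 0.54). Plk1, a kinase of mitotic entry, differed by 0.13 (-0.52 to 0.78). Ccnb2, the cyclin B relative of the NIPA substrate, measured 6.53, 7.13 and 7.31 in WT and 6.39, 7.40 and 8.55 in KO cells. KO array 3 was the highest and KO array 1 the lowest of all 6 (difference 0.46, SE 0.40). Ccnb1 itself was not analysed here, for want of a probe set with a single symbol. Bub1b, a spindle checkpoint kinase, was the only member whose arrays did not overlap, at 6.88, 6.93 and 6.76 in WT and 7.09, 6.99 and 7.48 in KO cells (difference 0.33, SE 0.17). Irradiation lowered 31 of the 33 genes in each genotype, where 2.70% of all genes fell in WT and 3.20% in KO cells. The medians of that fall were -1.47 in WT and -1.30 in KO cells.

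Aspm and Ticrr are cell cycle genes that belong to none of the lists. They were picked for large upward differences with arrays apart, so they add no support to the mitosis list. Aspm, a protein of the mitotic spindle poles, measured 4.91, 5.36 and 5.18 in irradiated WT and 5.50, 6.02 and 6.54 in irradiated KO cells. WT arrays 1 and 3 were below the brightness limit of 5.29, so the sizes of its differences are uncertain. All KO arrays were above all WT arrays (difference 0.87, SE 0.25, unadjusted p = 0.0038 by limma), against 0.12 in untreated cells. Aspm fell by 1.95 with irradiation in WT cells and by 1.20 in KO cells (limma adjusted p = 0.00066 and 0.014), and the test of the difference between these falls was not passed (0.75, 95% interval 0.00 to 1.51, limma adjusted p = 1.00). Ticrr, which starts replication forks, measured 6.95, 6.75 and 6.41 in WT and 7.37, 7.17 and 7.83 in KO cells (difference 0.75, SE 0.23). Among 32 genes of G1/S and replication, 25 differed upwards and 7 downwards, with a median of 0.07, or 0.03 without WT array 3 and 0.16 without KO array 2. Their largest difference was that of E2f2, an activator of replication genes, at 5.89, 5.98 and 5.74 in WT and 6.54, 6.13 and 6.31 in KO cells (0.45, SE 0.17).

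No partner of NIPA passed the test. Skp1 and Cul1, the scaffold of its ligase, differed by 0.06 (95% interval -0.42 to 0.55) and -0.07 (-0.39 to 0.25). Nup50 and Nup153, proteins of the inner side of the nuclear pore, differed by 0.15 and 0.03. Alk, the kinase receptor in whose complexes NIPA was first found, was dim in all cells and differed by -0.24 (SE 0.12) after irradiation and by 0.25 without it. Tpr has no probe set with a single symbol and was not analysed here.

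DNA repair genes were likewise close. Of 24 genes of the Fanconi anaemia pathway, 15 differed upwards and 9 downwards, with a median of 0.04 and all 24 intervals inside a 2-fold difference. Fancd2, the monoubiquitinated core of the pathway, measured 6.33, 6.39 and 6.25 in irradiated WT and 6.15, 6.31 and 6.37 in irradiated KO cells. The groups overlapped (difference -0.05, 95% interval -0.34 to 0.24). Fanci, its binding partner, measured 5.98, 5.86 and 6.04 in WT and 5.85, 5.82 and 5.78 in KO cells, just apart (difference -0.14, SE 0.14). Fancm, a DNA translocase, differed by 0.33 (unadjusted p = 0.031 by limma). Genes of homologous recombination (19 measured), end joining (15) and damage sensing (19) had medians of 0.03, 0.06 and 0.07, and each of their intervals lay inside a 2-fold difference.

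Atm, the kinase that senses double-strand breaks, was the repair gene of smallest p. It measured 7.47, 7.72 and 7.61 in irradiated WT and 7.79, 8.12 and 7.94 in irradiated KO cells. Every KO array was above every WT array (difference 0.35, SE 0.12, unadjusted p = 0.012 by limma). In untreated cells it measured 8.22, 8.31 and 8.48 in WT and 8.83, 9.01 and 8.93 in KO cells, a difference of 0.59, also without overlap. Atm fell with irradiation in both genotypes, by 0.74 in WT and 0.97 in KO cells (limma adjusted p = 0.0037 and 0.00063). Lig4, the ligase of end joining, differed by 0.31 after irradiation and 0.28 without it.

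Stem cell genes lay slightly lower in irradiated KO cells. Of 24 measured, 20 differed downwards and 4 upwards, with a median of -0.11, and none passed the test. The mean deviation of the list was 0.34, -0.14 and 0.05 in WT arrays and -0.11, 0.22 and -0.34 in KO arrays, so that the groups overlapped and KO array 2 was above 2 of the WT arrays. Without KO array 3 the median was -0.03, and without KO array 2 it was -0.33. Tal1, a master regulator of blood formation, measured 8.56, 8.26 and 8.33 in WT and 8.04, 8.13 and 7.93 in KO cells, without overlap (difference -0.35, SE 0.15; -0.01 untreated). Procr, a surface marker of the most primitive cells, differed by 0.04 (95% interval -0.67 to 0.75). Tek, the angiopoietin receptor of quiescent stem cells, was high on WT array 1 at 8.81 and low on KO array 3 at 6.23, with the other arrays between 7.30 and 7.62 (difference -0.74, SE 0.47). Megakaryocyte genes, which aged stem cells often express, differed downwards in 13 of 15 with a median of -0.17. Without WT array 1 that median was -0.06 and without KO array 3 it was -0.08.

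Lymphoid and B-lineage genes differed upwards with KO array 3 in front. Lymphoid priming genes were higher in 7 of 10 members with a median of 0.25, and B cell genes in 12 of 17 with a median of 0.27. The lymphoid median was 0.19 without KO array 3 and 0.35 without KO array 2. The mean deviation of the B cell list was -0.47, 0.05 and -0.24 in irradiated WT arrays and -0.22, -0.08 and 0.96 in irradiated KO arrays. Without KO array 3 the B cell median was 0.07, and without KO array 2 it was 0.41. Pax5, which fixes B cell identity, measured 5.32, 5.86 and 5.38 in WT and 5.66, 5.90 and 7.05 in KO cells, and Cd79a, a chain of the B cell receptor, 5.82, 7.38 and 6.41 against 6.60, 6.89 and 9.08. Satb1, a chromatin organizer that primes lymphoid fate, showed less dependence on that array, at 7.38, 7.74 and 7.51 in WT and 8.18, 7.76 and 8.33 in KO cells (difference 0.55, SE 0.18; 0.29 untreated). Flt3, the receptor of multipotent progenitors, measured 7.36, 7.53 and 7.68 in WT and 7.87, 7.72 and 7.92 in KO cells (difference 0.31, SE 0.16; -0.02 untreated). Il7r, the receptor of lymphoid progenitors, measured 5.64, 6.20 and 5.91 in WT and 6.22, 6.67 and 6.97 in KO cells (difference 0.70, SE 0.44). The arrays of these 3 genes did not overlap between genotypes, narrowly so for each of them, and none passed the test. Over all genes, 2.57% had KO arrays above the WT arrays without overlap.

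Myeloid genes varied from pool to pool. Cpa3, the carboxypeptidase of mast cells and their progenitors, had the largest upward difference among the named genes whose arrays lay apart with an unadjusted p under 0.01. It measured 7.36, 7.95 and 7.94 in irradiated WT and 9.13, 8.26 and 8.55 in irradiated KO cells (difference 0.90, SE 0.29, unadjusted p = 0.0085 by limma), against a difference of 0.18 in untreated cells. Mcpt8, a protease of basophils, measured 6.71, 9.28 and 8.40 in WT and 8.69, 9.36 and 9.25 in KO cells, so that WT array 1 made most of its difference of 0.97 (SE 0.53). Hdc, which makes histamine, measured 5.73, 6.90 and 6.20 in WT and 7.10, 6.57 and 6.93 in KO cells. The list of 10 mast cell and basophil genes had 7 members higher and 3 lower in KO cells, the lowest at -0.22. Its median was 0.14, or 0.06 without KO array 1 and 0.36 without KO array 2. Its mean deviation was -0.51, 0.11 and -0.07 in WT and 0.15, 0.11 and 0.22 in KO arrays. Of 20 granulocyte genes 10 differed upwards and 10 downwards, between -0.73 and 0.67, with a median of -0.03, which was -0.18 without WT array 1 and 0.11 without WT array 3. In that list Elane and Mpo, granule enzymes of neutrophil precursors, differed by 0.67 (SE 0.33) and 0.53 (SE 0.31), with overlap. Erythroid genes had a median of -0.01, T and NK cell genes 0.00, and endothelial and stromal genes 0.00. No list among the 29 had mean deviations that separated the 3 irradiated KO arrays from the 3 irradiated WT arrays.

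**Figure D4:**
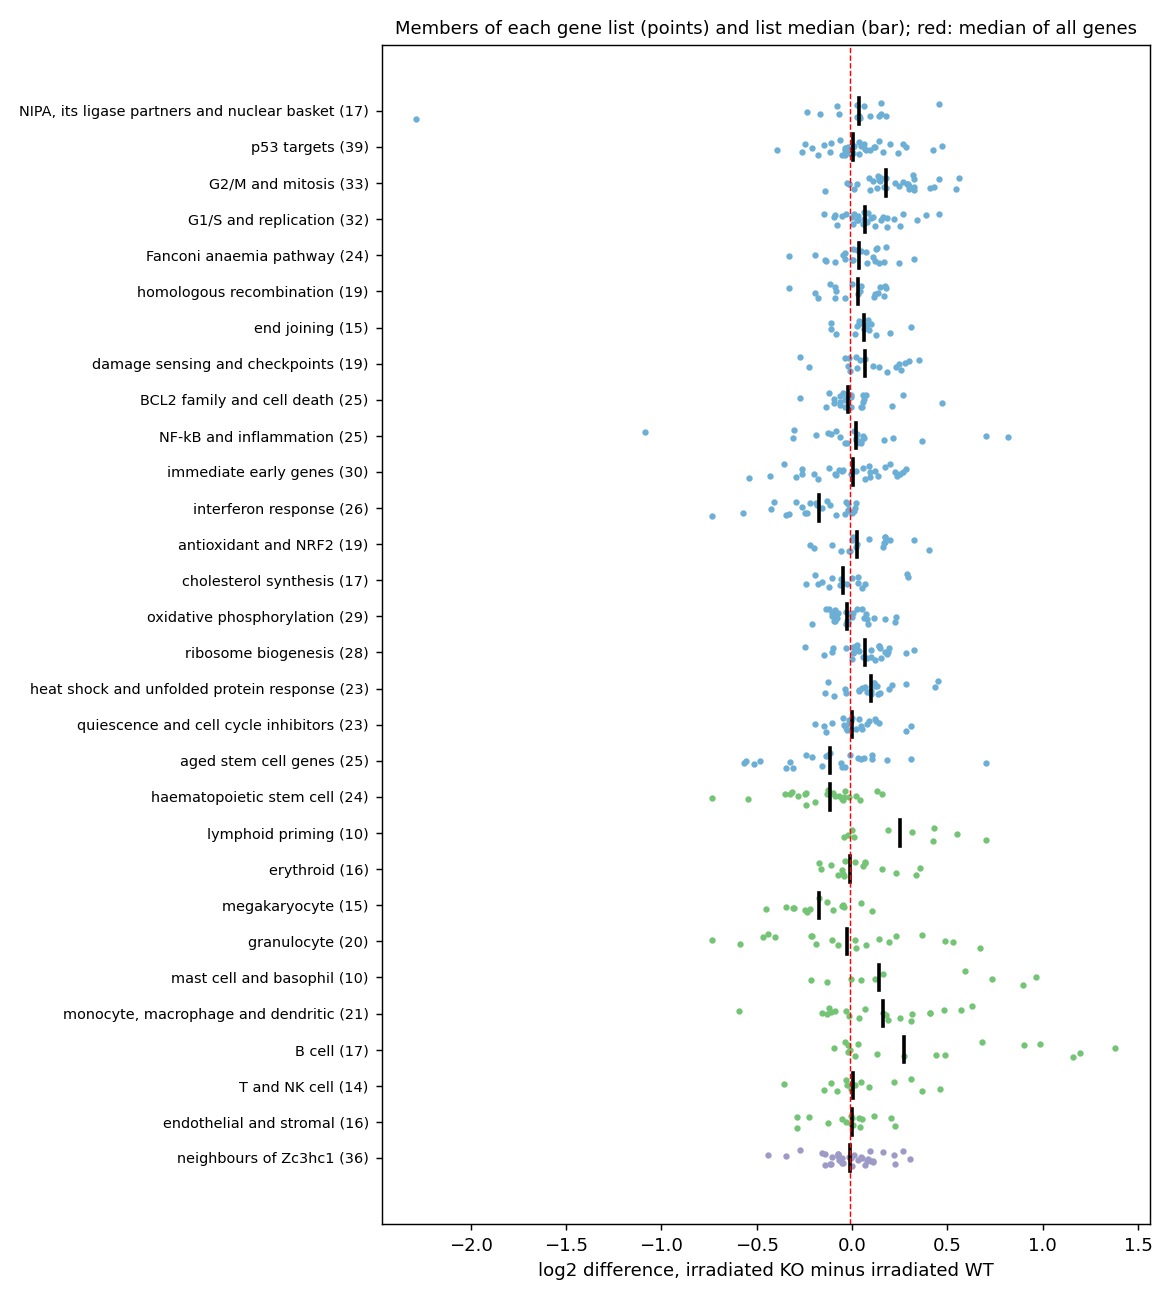
Difference between irradiated KO and irradiated WT cells (x axis, log2) for the measured members (points) of 29 gene lists, processes in blue and cell types in green, and of the chromosomal neighbours of Zc3hc1 in violet; the number measured stands in parentheses. Black bars are list medians, from -0.17 to 0.27, and the dashed red line is the median of all genes at -0.01.

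In all, the 29 lists name 698 genes, of which 602 were tested. Of these, 22 (3.65%) had an unadjusted p under 0.05 and 35 (5.81%) had arrays that did not overlap, near the 3.07% and 6.40% of all genes. The intervals of 523 lay inside a 2-fold difference.

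Outside the lists, several signalling and transport genes were picked for large upward differences with arrays apart. Their lack of overlap is therefore no further result. Peak1, a pseudokinase scaffold of the cytoskeleton, measured 9.89, 10.12 and 10.47 in irradiated WT and 10.51, 11.09 and 11.03 in irradiated KO cells. Its lowest KO array was only just above its highest WT array (difference 0.72, SE 0.19, unadjusted p = 0.0031 by limma), and untreated cells differed by 0.75. Abca1, the cholesterol exporter, measured 7.84, 7.31 and 7.64 in WT and 8.24, 8.14 and 8.19 in KO cells. Its KO arrays were tightly grouped above the WT arrays (difference 0.60, SE 0.14, unadjusted p = 0.0012 by limma; 0.48 untreated). Nf1, which encodes the RAS inhibitor neurofibromin, measured 9.59, 9.60 and 9.88 in WT and 9.97, 10.55 and 10.24 in KO cells (difference 0.56, SE 0.16; 0.64 untreated). Hivep2, a zinc finger transcription factor, differed by 0.70 (SE 0.21; 0.51 untreated). Cyp39a1, an oxysterol hydroxylase, and Prnd, a relative of the prion protein, differed by 0.66 and 0.54 after irradiation and by -0.07 and 0.00 without it.

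On the lower side, Vsig10, an immunoglobulin-domain membrane protein, measured 6.70, 6.51 and 6.81 in irradiated WT and 6.25, 6.22 and 6.02 in irradiated KO cells, without overlap (difference -0.51, SE 0.12, unadjusted p = 0.00093 by limma; -0.09 untreated). Stk39, a kinase that controls ion transport, measured 7.24, 7.22 and 7.26 in WT and 6.69, 6.90 and 6.42 in KO cells (difference -0.57, SE 0.16; -0.22 untreated). Its WT arrays were almost equal and all above the KO arrays. Thy1, a surface glycoprotein of T cells and of some stem cells, measured 6.96, 6.78 and 7.06 in WT and 6.66, 6.46 and 6.61 in KO cells (difference -0.36, SE 0.12; 0.16 untreated). Apol9b, Pgap6, Tdrkh, Cadps2 and Sgce lay between -0.58 and -0.49 with the same lack of overlap. Except for Thy1, the genes of this paragraph were picked for large downward differences with arrays apart.

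Genes beside Zc3hc1 on chromosome 6 did not share its difference. Of the 25 nearest genes on either side, 36 were tested, 16 higher and 20 lower in irradiated KO cells, with a median of -0.01 and every interval inside a 2-fold difference. Ube2h and Klhdc10 flank the gene. Klhdc10, a substrate receptor of a ubiquitin ligase, measured 8.41, 8.97 and 8.37 in WT and 8.35, 8.39 and 8.17 in KO cells (difference -0.27, SE 0.15). The lowest difference among the neighbours was that of Exoc4, a subunit of the exocyst, at -0.44 (SE 0.19; -0.03 untreated), the 18th gene to one side of Zc3hc1.

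Untreated cells gave a similar size of genotype difference and again 1 gene past the test, Zc3hc1. Without adjustment 330 genes (2.15%) had p under 0.05 by limma, and the arrays of 1221 genes (7.96%) did not overlap. The irradiated and untreated differences share no array, though they may share pools, and over the genes tested their Pearson correlation was 0.376 and their Spearman correlation 0.235, as a description. Arrays lay apart in the same direction at both doses for 85 genes (0.554%), 50 higher and 35 lower in KO cells, and in opposite directions for 41. The 8 of the 85 that belong to a list were Zc3hc1, Ifih1, Mx2, Ccl5 and Jund, lower in KO cells, and Atm, Ccl3 and Satb1, higher. Averaged over both doses, 1 gene passed the test (0.00652%) and 635 (4.14%) had an unadjusted p under 0.05 by limma. These p-values take the arrays of both doses as independent and may be too small if pools were shared.

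The genotype difference was not shown to depend on irradiation for any gene. The interaction, the irradiated difference minus the untreated one, passed the test for 0 genes by limma, with 235 (1.53%) at an unadjusted p under 0.05 and a smallest adjusted p of 0.99988. Its typical 95% interval reached 0.45 to either side. Car1, carbonic anhydrase of early erythroid cells, illustrates this limit. In untreated cells it measured 7.76, 7.80 and 8.26 in WT and 8.92, 9.40 and 8.96 in KO cells, with no overlap and a difference of 1.16. After irradiation it measured 5.58, 5.47 and 6.03 in WT and 5.26, 6.08 and 6.45 in KO cells, with overlap and a difference of 0.23. The change of -0.92 (95% interval -1.76 to -0.09) did not survive adjustment (limma adjusted p = 1.00). A1cf, an RNA-binding cofactor of RNA editing, measured 6.90, 6.99 and 6.91 in WT and 6.27, 6.42 and 6.81 in KO cells without irradiation, and 7.83, 8.19 and 8.20 in WT and 8.35, 8.53 and 8.67 in KO cells after it. Its KO arrays were the lower ones before irradiation and the higher ones after it (change 0.88, SE 0.22, limma adjusted p = 1.00). Slc35d2, a nucleotide sugar transporter, and Hmgn5, a nucleosome-binding protein, changed places in the same way, by 0.65 and 0.72, and Igf2 and Gsc2 in the opposite way, by -0.58 and -0.65. These 5 genes have the smallest p of the interaction and none passed its test.

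**Figure D5:**
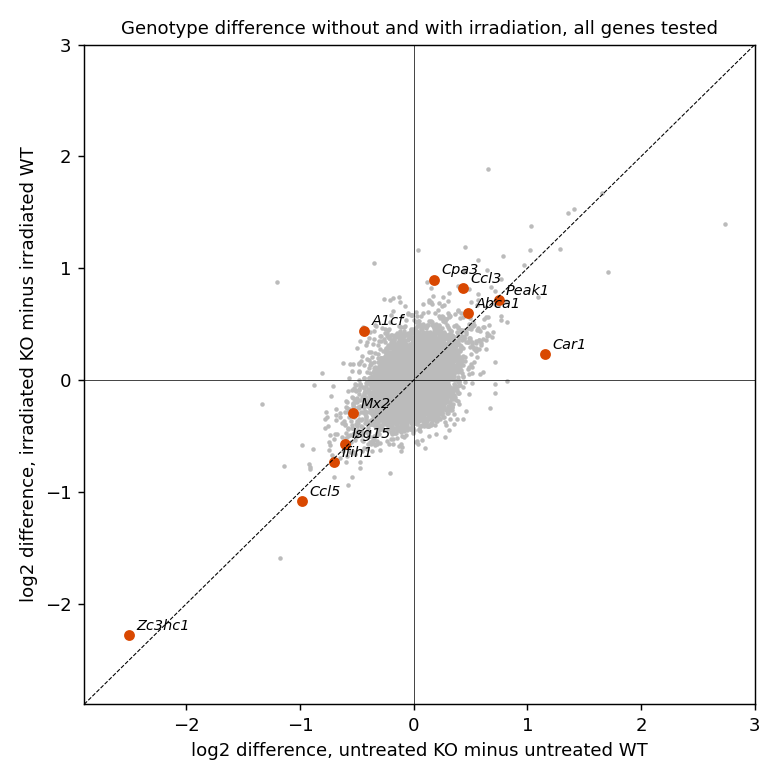
Difference between KO and WT cells without irradiation (x axis, log2) and after 4 Gy (y axis, log2) for the 15348 genes tested; the dashed line marks equal differences. Zc3hc1, at -2.50 and -2.28, lies apart at the lower left, Ifih1 and Ccl5 lie near the line, and Car1, at 1.16 and 0.23, lies well below it.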

How the data were processed

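LSK cell samples of 4 groups (KO and WT, untreated and irradiated, 3 arrays each) were measured on Affymetrix arrays. The authors deposited log2 expression values, 1 per probe set and array; the submitters' processing notes name oligo and RMA (background correction, quantile normalization, probe summary), with versions and build not given in the sources used here. Quantile normalization removes any shift common to all genes. Of 41345 probe sets, 23521 carry exactly 1 symbol in the platform annotation, 1814 several and 16010 none. Per gene the brightest single-symbol probe set was used (22180 genes), and genes above the table's 40th percentile (5.29) on at least 3 arrays were tested (15348). The number of arrays limits the precision. limma 3.58.1 (R 4.3.3) tested the differences in 1 model over 12 arrays, with two-sided p-values adjusted by Benjamini-Hochberg over all genes tested and a threshold of 0.05; an exact permutation test of 3 against 3 was not used, as it cannot go below p = 0.1. The script was tested on simulated data. A list's mean deviation on an array is the mean over its members of the value minus the gene's mean over the 6 arrays of that dose. Intervals are at 95% from limma.

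The comparison, the gene lists and the rule for named genes were chosen with earlier results of these data known. The rule names a fixed set of genes of NIPA function and damage response, genes past the test, up to 12 genes a direction of largest difference with unadjusted p under 0.01 and arrays apart, up to 4 members of each list and 6 neighbours by p, and the 5 smallest p of the interaction. Predicted genes and clone names were counted, not named. Other list members are given as examples, chosen after their values were seen. Alternatives concerned the spread estimate, blocks, scaling, brightness limit, probe set choice and left-out arrays.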

Additional observations from a re-analysis of the deposited data

How the results depend on the processing

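The count of 1 gene past the test after irradiation, and Zc3hc1 as that gene, held under 24 of the 25 alternatives. The exception was chosen after seeing the data: with the Y-linked mean as a covariate in a fit of only the 6 irradiated arrays, 0 genes passed by limma, 207 had an unadjusted p under 0.05, and Zc3hc1 differed by -2.33 with an adjusted p of 0.148; this fit leaves 3 residual degrees of freedom. Over the alternatives Zc3hc1 ranged from -2.42 to -2.16, and without the untreated arrays its adjusted p was 0.00855. Leaving out any 1 of the 12 arrays kept the count at 1 in each genotype comparison and at 0 for the interaction. The count averaged over both doses, 1 in the main analysis, was 2 with array weights, with array medians subtracted and with the mean of a gene's probe sets (Ifih1 added each time), 2 with the Y-linked covariate (Abca1 added) and 4 with the replicate number as a block (Ccl5, Ifih1 and Peak1 added). The averaged difference of Ifih1 had adjusted p-values by limma of 0.0811 with the block within genotype, 0.142 after cyclic loess, 0.0838 to 0.269 with 1 array left out, and 0.235 with the Y-linked covariate, where it was -0.60. The block within genotype joins untreated and irradiated arrays by number. KO arrays 2 and 3 joined in this way correlated at -0.239 and -0.122, so that fit is not a sound check on shared pools. Same-numbered irradiated KO and WT arrays deviated from their group means with correlations of 0.341, -0.289 and 0.284. KO array 2 with WT array 3 gave 0.296, and KO array 3 with WT array 2 gave 0.184. Whether KO and WT arrays are paired is not settled by these values, and the main fit used no pairing. The replicate number as a block left the irradiated count at 1 (Zc3hc1 adjusted p = 0.000104 by limma). Ifih1 after irradiation ranged from -0.81 to -0.56, with a smallest adjusted p of 0.708. Of 3806 values of other named genes under alternatives, 44 had the other sign, none past the test. Most of these genes were chosen by small p or large differences in the same arrays, which favours stable signs. Of 750 list medians, 24 moved by 1 SD or more, among them p53 targets (0.14 without irradiated KO array 1). The median of all genes was -0.01, 0.01 with array medians subtracted and 0.00 after loess. The cause of these shifts was not tested.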

Other observations

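Ribosome biogenesis, stress and ageing genes complete the account of irradiated KO and WT cells, without any member past the test by limma. Of 28 ribosome biogenesis genes, 23 differed upwards and 5 downwards, with a median of 0.07, or 0.01 without irradiated KO array 1. Heatr1, a factor of ribosomal RNA transcription, measured 8.75, 8.71 and 8.76 in irradiated WT and 9.04, 8.95 and 9.06 in irradiated KO cells, without overlap (difference 0.28, SE 0.11; 0.18 untreated). Rrp12, which helps to export ribosomal subunits, differed by 0.32 (SE 0.14) with overlap. Heat shock and unfolded protein response genes differed upwards in 18 of 23, with a median of 0.10, or 0.00 without WT array 1. Genes known to be high in aged stem cells differed downwards in 17 of 25, with a median of -0.12, which was 0.08 without WT array 1, and their mean deviation was 0.53, -0.34 and -0.02 in WT arrays and -0.01, 0.25 and -0.41 in KO arrays, with WT array 1 and KO array 3 at the ends. Immediate early genes were 15 higher and 15 lower with a median of 0.01, oxidative phosphorylation genes had a median of -0.03 and cholesterol synthesis genes one of -0.05. All 3 medians took either sign when 1 irradiated array was left out. Immediate early genes ranged from -0.07 without KO array 2 to 0.06 without KO array 3. Oxidative phosphorylation genes ranged from -0.16 without KO array 1 to 0.12 without WT array 2, and cholesterol synthesis genes from -0.08 without WT array 1 to 0.04 without WT array 2.

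Arrays of both doses were also compared by how they deviate from their group means over the genes tested. In WT cells, untreated and irradiated arrays of the same number correlated at 0.491, 0.476 and 0.420, and arrays of different numbers at or below -0.08. In KO cells array 1 correlated with array 1 at 0.474, but untreated array 2 correlated best with irradiated array 3 (0.438) and untreated array 3 with irradiated array 2 (0.517). Xist and the B cell list showed the same order. Xist measured 9.21, 11.28 and 5.37 in untreated KO arrays 1 to 3 and 8.69, 5.46 and 11.23 in irradiated KO arrays 1 to 3. The mean deviation of the B cell list was -0.21, 0.80 and -0.08 in untreated KO arrays and -0.22, -0.08 and 0.96 in irradiated KO arrays. These values bear on which arrays could be paired and not on the group to which an array belongs. No sample was renumbered.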
